A study of Mus musculus with 16 samples.

Results

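A set of 47 genes that were low in control primordial germ cells (PGCs) and higher in every library labelled as a Prdm1 conditional knockout (CKO) is described here, out of 26219 genes in the table. The members were chosen by their measured values. A gene was taken when its mean over 4 control libraries was under 3 RPM (a reads-per-million unit over gene-assigned reads), its mean over 4 CKO-labelled libraries was at least 5 RPM, and its lowest CKO-labelled value lay above its highest control value. Of 15996 genes with a control mean under 3 RPM, 52 met these conditions (0.325%), and Klf4, Klf9, Bak1, Oasl2 and Upp1 were left out of the set by choice. The mirrored conditions, with the groups exchanged, were met by 12 of 15705 genes (0.0764%). The levels in the control and CKO-labelled libraries are therefore descriptions of the choice and carry no test.

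PGCs, from which sperm and eggs descend, were sorted from dissociated mouse gonads and profiled by 3′ RNA sequencing in 16 libraries. The controls were Prdm1(flox/flox); Rosa26(neo-EYFP/+) at E11.5, strain C57BL/6 (n = 4). The CKO-labelled group had the same alleles plus Dppa3-MCMP(Tg/0), a transgene in which the Dppa3 promoter drives a tamoxifen-inducible Cre in germ cells (n = 4). Both groups came from females injected with 4-hydroxytamoxifen (3 mg per 25 g body weight) at day 10.5, so the drug was shared, while the transgene was present in the CKO-labelled group alone and its presence cannot be told apart from the deletion. The wild-type set carried Dppa3(EGFP/+) on a 1:1 mixture of ICR and C57BL/6, with 2 libraries each at E10.5, E11.5, E13.5 male and E13.5 female. The floxed cells were collected by EYFP or by an SSEA-1 antibody, and the labels do not tie either sort to a group. Nothing in the labels ties replicates to separate embryos or litters, and the p-values below therefore cover the spread among these libraries, which may be only technical.

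PRDM1, also called BLIMP1, is a zinc-finger protein that binds DNA through a GAAAG-containing sequence and recruits corepressors and chromatin-modifying enzymes, so that it acts mainly as a repressor of transcription. It is needed in the epiblast for PGCs to form, where it silences a somatic programme, and it also directs the differentiation of plasma cells and other lymphocytes. Binding of PRDM1 was not measured here.

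The floxed libraries held about 2798000 to 5032000 reads and the wild-type ones 1485000 to 4783000, so 3 reads correspond to 0.596 to 1.07 and 0.627 to 2.02 RPM. The control values of the members rest on 0 to 51 reads per gene over the 4 libraries, with all controls at or under 3 reads in 6 members, and the floors and intervals given below cover counting error only. Prdm1 itself was listed at 50.7 to 73.0 RPM in controls and 76.6 to 89.4 RPM in CKO-labelled libraries; a 3′ read can lie outside a deleted exon, so this checks neither the deletion nor the labels. Germ cell markers summed to 3960 to 4370 RPM in controls and 3530 to 4000 RPM in CKO-labelled libraries, with Dppa3 the largest part. Single markers differed in direction. Kit (229 to 267 RPM in controls, 164 to 200 in CKO-labelled libraries) and Prdm14 (61.5 to 76.4, 46.3 to 56.8) were lower without overlap. Nanos3 (12.7 to 20.3, 21.0 to 27.4) was higher without overlap, and the other markers overlapped. CKO-labelled library 4 had the lowest mean correlation to its own group (0.9549, against 0.9699, 0.9701 and 0.9672 for CKO-labelled libraries 1 to 3). Markers of gonadal somatic and mesenchymal cells (13 of 13 found, 2 with a mean under 1 RPM) summed to 118, 20.5, 12.3 and 304 RPM in CKO-labelled libraries 1 to 4, against 14.4 to 81.8 RPM in controls. In a bulk sample a higher level in all cells and a high level in some of them cannot be told apart.

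The 47 members had a median control mean of 1.71 RPM (up to 2.96) and a median CKO-labelled mean of 6.92 RPM (5.17 to 17.2). The ratio of the means had a median of 4.67 over the 46 members with any control reads, from 2.07 for Fam160b2 to 58.9 for Spic. It reached 5-fold in 22 members and 10-fold in 8, with Fgf4, which had no control read, counted in both by its lower bound. Summed over all 47, the members gave 63.3, 96.9, 63.9 and 75.1 RPM in controls 1 to 4 and 359, 354, 358 and 436 RPM in the CKO-labelled libraries. The conditions of the choice put every CKO-labelled sum above every control sum, so the member sums are a description only. Somatic marker sums ranged from 12.3 to 118 RPM in the first 3 CKO-labelled libraries, and library 4 was highest in both sums. Neural and neural crest markers (8 of 8 found, 4 with a mean under 1 RPM) were also higher in every CKO-labelled library, with sums of 16.4 to 25.7 RPM in controls and 28.1 to 55.4 RPM. Tubb3 among them, a neuronal tubulin gene, was at 5.30, 8.95, 6.35 and 5.18 RPM in controls and 15.8, 25.8, 26.1 and 26.5 RPM in CKO-labelled libraries. Without Tubb3 the other 7 summed to 10.1 to 18.8 RPM and 11.8 to 28.9 RPM, and the groups overlapped. The part of other cell types in the members' levels was not tested. The members are spread over 19 chromosomes, with 6 on chromosome 7 and 4 each on chromosomes 5 and 15.

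**Figure D1:**
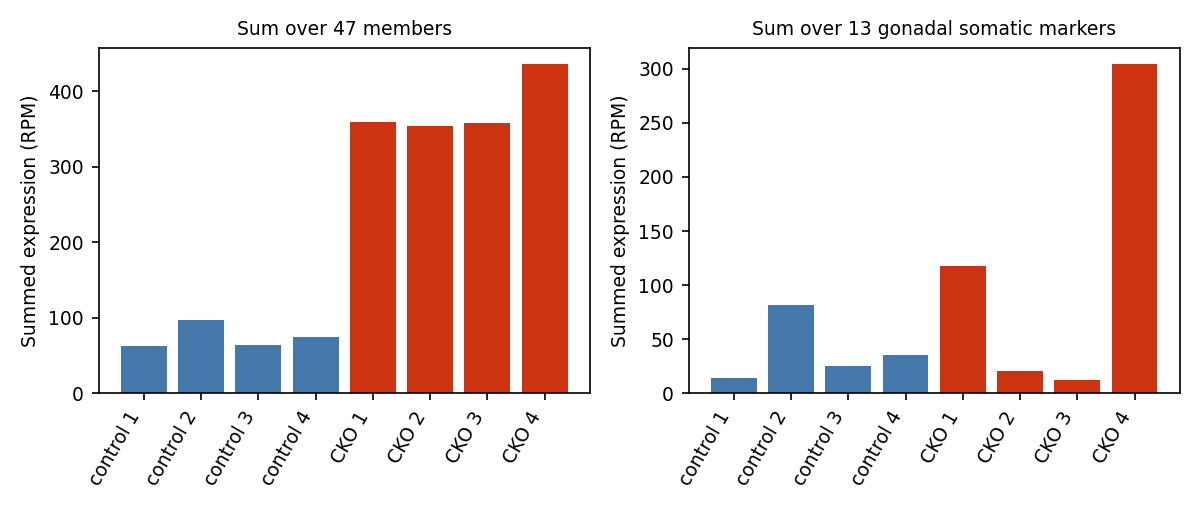
Summed expression (RPM) of the 47 members (left) and of 13 gonadal somatic markers (right) in each floxed library, 1 bar per library, controls in blue and CKO-labelled in red. The member sums, which the choice put higher in every CKO-labelled library, were 63.3 to 96.9 RPM in controls and 354 to 436 RPM in CKO-labelled libraries. The somatic sums were 14.4 to 81.8 RPM in controls and 118, 20.5, 12.3 and 304 RPM in CKO-labelled libraries 1 to 4.

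Library 4 was the highest CKO-labelled library for 20 members (42.6%), library 3 for 11, library 2 for 9 and library 1 for 7. Among all 3286 genes with a CKO-labelled mean of 5 to 20 RPM, library 4 was the highest for 45.3%. In 9 members library 4 was at least 1.5 times the next CKO-labelled library, namely Armcx1, Smarcc2, Med13l, Vangl2, Meis3, Armcx4, Ccdc90a, Plekho1 and B3gnt5. Without library 4 the same conditions gave 46 genes, 41 of them shared, and Armcx4, B3gnt5, Ccdc90a, Meis3, Plekho1 and Tyrobp dropped out. Without CKO-labelled libraries 1 and 4, which held the most somatic signal, 44 genes met them and 36 were shared, with Ak4, Fst, Kctd14, Nin and Vangl2 also lost. The part of somatic cells in the levels of these 11 genes was not tested.

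At the edges of the choice, Vav2 (control mean 2.96 RPM), Smarcc2 (2.83) and Fam160b2 (2.83) lay just inside the control ceiling, and Fam53b (3.0), Fkbp14 (3.04) and Pmaip1 (3.06) just outside it. By CKO-labelled mean, Tyrobp (5.17 RPM), B3gnt5 (5.28) and Fst (5.28) lay just inside, and Gm7325 (4.91), Dnajb14 (4.85) and Lpar4 (4.83) just outside. The gap between the lowest CKO-labelled and the highest control value was 0.0303 RPM for Armcx4, 0.0378 for Meis3 and 0.173 for Plekho1. It was -0.137 RPM for LOC100861967, -0.182 for Galnt10 and -0.269 for Per3, which were left out. Gaps of this size are near what a single read was worth (0.199 to 0.357 RPM per floxed library).

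**Figure D2:**
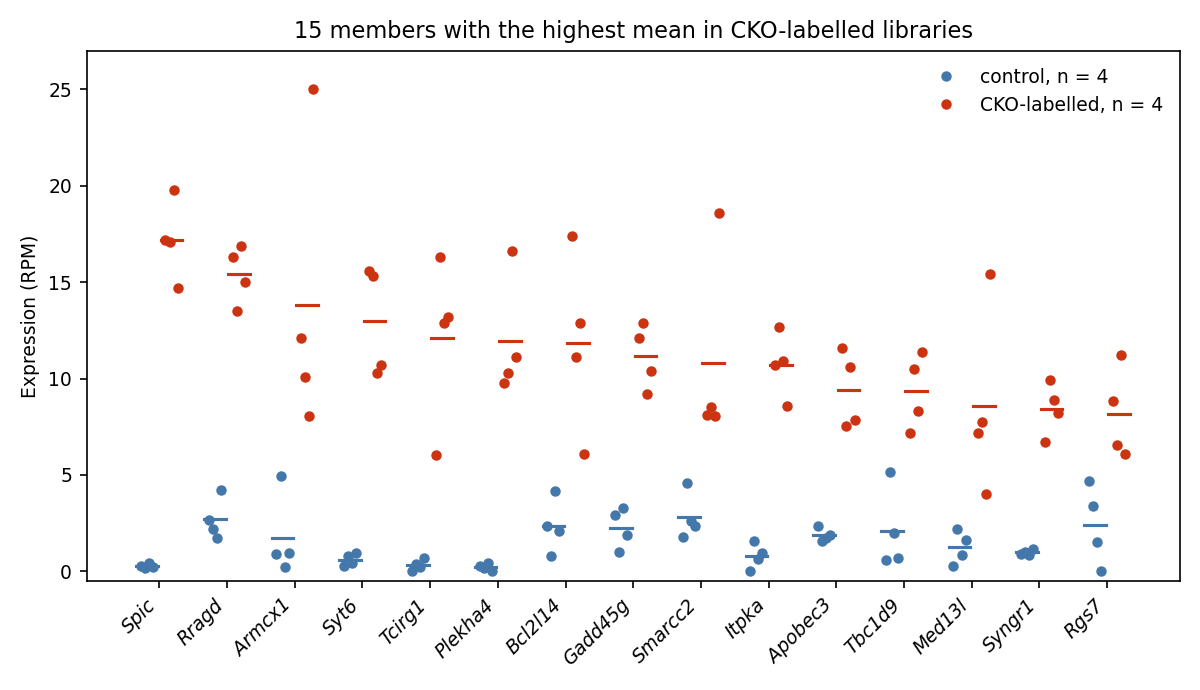
Expression (RPM) of the 15 members with the highest CKO-labelled mean, 1 point per library and a line at the group mean, controls in blue and CKO-labelled in red (n = 4 each). Spic is at or below 0.438 RPM in all controls and between 14.7 and 19.8 RPM in the CKO-labelled libraries, and library 4 gives the high points of Armcx1 (25.0), Smarcc2 (18.6) and Med13l (15.4).

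Promoter sequences are shown because PRDM1 acts through DNA binding and the members were higher together in the CKO-labelled libraries. RefSeq promoter windows of 300 bases (250 before and 50 after an annotated start, GRCm38.p6) were matched for 40 members, with 61 windows. They were searched on both strands for AGNGAAAG, the core of the PRDM1 site known from lymphocytes, and for GAAAGNGAA, which overlaps it in part. AGNGAAAG occurred in 9 of the 40 members (22.5%), in 9.91% of 27025 genes with a window, and in 8.66% of the genes at 5 RPM or more in at least 4 floxed libraries. GAAAGNGAA occurred in 6 members (15%), in 3.15% of all genes and in 2.81% of the expressed ones. Counted per window, the shares were 18% of the members' windows against 8.63% of all for AGNGAAAG, and 9.84% against 2.72% for GAAAGNGAA. These shares rest on few members, were compared with no test, and say nothing of binding.

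Both sequences, overlapping, were present in Itpka, Parp4 and Apobec3. GAAAGNGAA alone was present in Aff1, in the second window of Plekha4 and in the third of Tcirg1. AGNGAAAG alone was found in Ak4, Cdkl2, Mitf, Bcl2l14, Otx2 and Dnmbp. Windows of Spic, Syt6, Fgf4, Bcl3 and Cd274 held neither. The windows of the 3 members with both, of Tcirg1 and, for contrast, of Spic are printed from 5′ to 3′ along each gene's own strand, with the matched letters in capitals. Itpka is at chr2:119742087-119742386 (plus strand), Parp4 at chr14:56575369-56575668 (plus), Apobec3 at chr15:79892158-79892457 (plus), Tcirg1 at chr19:3905181-3905480 (minus) and Spic at chr10:88682974-88683273 (minus).
Itpka: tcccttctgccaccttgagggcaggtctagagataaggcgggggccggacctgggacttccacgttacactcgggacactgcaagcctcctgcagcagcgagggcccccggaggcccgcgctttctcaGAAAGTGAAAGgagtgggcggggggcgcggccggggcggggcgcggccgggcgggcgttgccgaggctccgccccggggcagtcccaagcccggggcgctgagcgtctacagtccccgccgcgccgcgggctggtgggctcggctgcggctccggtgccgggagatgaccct
Parp4: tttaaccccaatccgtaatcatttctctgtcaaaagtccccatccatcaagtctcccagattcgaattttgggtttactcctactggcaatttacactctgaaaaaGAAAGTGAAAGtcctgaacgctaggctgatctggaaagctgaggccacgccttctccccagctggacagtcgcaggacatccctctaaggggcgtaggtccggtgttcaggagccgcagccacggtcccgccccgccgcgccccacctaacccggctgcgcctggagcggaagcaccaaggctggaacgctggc
Apobec3: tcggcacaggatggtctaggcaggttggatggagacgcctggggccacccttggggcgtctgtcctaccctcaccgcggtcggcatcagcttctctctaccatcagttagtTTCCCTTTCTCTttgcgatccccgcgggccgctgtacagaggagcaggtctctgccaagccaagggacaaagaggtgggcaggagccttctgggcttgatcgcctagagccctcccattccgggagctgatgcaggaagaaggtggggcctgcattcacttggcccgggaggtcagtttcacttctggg
Tcirg1: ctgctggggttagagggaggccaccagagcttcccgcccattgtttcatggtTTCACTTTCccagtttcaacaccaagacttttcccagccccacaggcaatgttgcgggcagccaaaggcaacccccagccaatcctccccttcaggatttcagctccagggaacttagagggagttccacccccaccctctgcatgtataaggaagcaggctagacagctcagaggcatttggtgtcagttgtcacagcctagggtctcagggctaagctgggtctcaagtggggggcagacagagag
Spic: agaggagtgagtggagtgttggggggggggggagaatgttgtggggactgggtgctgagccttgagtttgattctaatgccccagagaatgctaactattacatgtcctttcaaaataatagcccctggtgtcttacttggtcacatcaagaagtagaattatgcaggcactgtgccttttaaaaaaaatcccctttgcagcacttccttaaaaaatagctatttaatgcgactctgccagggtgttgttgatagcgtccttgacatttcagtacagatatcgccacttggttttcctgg

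Itpka and Parp4 carry the same 11 letters in capitals, and in Apobec3 and Tcirg1 the match lies on the opposite strand, so the capitals there read as its reverse complement. The windows also differ in CpG content, which often marks promoters of widely used genes. The ratio of observed to expected CpG was 0.203 in the Spic window and 0.818 in that of Itpka. Its median was 0.759 over the members, 0.415 over all genes and 0.827 over the expressed genes, and it was at least 0.6 in 72.5%, 38.4% and 83.8% of these.

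Of the transcription factors and co-regulators (8 members), Spic was the gene with the widest separation by ratio. Spic (chromosome 10, 88675269 to 88683023, GRCm38) encodes an ETS-family factor of the SPI subfamily, known for its role in red pulp macrophages of the spleen and also transcribed in embryonic stem cells. It was listed at 0.294, 0.199, 0.438 and 0.236 RPM in controls 1 to 4 and at 17.2, 17.1, 19.8 and 14.7 RPM in CKO-labelled libraries 1 to 4. No control exceeded 2 reads, and every CKO-labelled library held at least 41. From 5 reads over the controls and 270 over the CKO-labelled libraries, the ratio was 59.6 (95% interval from binomial counting 25.2 to 185). Of 12 macrophage markers found, 11 had a mean under 1 RPM and C1qa was at 0 in every floxed library; the 12th, Tyrobp, is a member. The 11 without Tyrobp summed to 0.294, 1.19, 3.72 and 8.25 RPM in controls and 12.1, 0.994, 3.73 and 3.93 RPM in CKO-labelled libraries, so the groups overlapped, with the highest sum in CKO-labelled library 1, and their part in Spic was not tested. None of the 11 other ETS-family genes tested was called in the floxed comparison (limma over 9384 genes, 0 higher and 1 lower at unadjusted p under 0.05).

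Otx2, a homeobox gene of head development and of the formative epiblast, was listed at 2.65, 3.78, 2.19 and 1.88 RPM in controls and 4.64, 7.95, 9.18 and 5.00 RPM in CKO-labelled libraries. Bcl3, an IκB-family coactivator of NF-κB, went from 0.859 ± 0.244 to 7.57 ± 1.54 RPM (SD, n = 4 each, as in all pairs of means below). Mitf, the helix-loop-helix factor of melanocytes, had means of 1.00 ± 0.169 and 5.59 ± 1.10 RPM. The separation was thus narrow for Otx2 and wider for Bcl3 and Mitf. Aff1, a scaffold of the super elongation complex, had means of 0.938 ± 0.788 and 6.57 ± 1.04 RPM. Med13l, of the kinase module of Mediator, and Smarcc2, the BAF170 subunit of SWI/SNF remodelling complexes, had means of 8.58 ± 4.81 and 10.8 ± 5.18 RPM in the CKO-labelled libraries. Library 4 raised both of these means, with 15.4 and 18.6 RPM against at most 7.75 and 8.54 RPM in the others. Meis3, a TALE homeobox gene, reached 2.98 RPM in its lowest CKO-labelled library, beside 2.94 RPM in its highest control.

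Of the secreted and cell-surface proteins (8 members), Fgf4 stood out by its controls. Fgf4 (chromosome 7, 144861386 to 144865245), the fibroblast growth factor secreted by the inner cell mass and epiblast, had 0 reads in all 4 controls and 3.95, 6.16, 8.04 and 5.36 RPM in the CKO-labelled libraries. Against a floor of 3 reads over the control group (0.174 RPM), it was at least 33.8-fold higher, while the lower 95% limit of the read ratio from binomial counting was 26.7. Cd274, which encodes PD-L1, the ligand of the T cell receptor PD-1, was listed at 0, 0.398, 0.219 and 0.471 RPM in controls and 6.73, 10.3, 4.88 and 7.51 RPM in CKO-labelled libraries. In both genes the lowest CKO-labelled library lay far above the highest control. Plgrkt, which encodes a plasminogen receptor, overlaps Cd274 on chromosome 19 and had means of 3.67 ± 0.922 and 14.2 ± 2.18 RPM. With a control mean under 5 RPM it needed its CKO-labelled values to pass the filter, so no p is given. Whether counting used strand is not given in the sources used here, so reads of the pair cannot be told apart.

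Fst, the secreted activin antagonist follistatin, had means of 0.879 ± 0.724 and 5.28 ± 1.74 RPM. Fst is also a marker of pre-granulosa cells, whose 5 markers, Fst among them, summed to 1.18 to 8.75 RPM in controls and 7.15 to 44.7 RPM in CKO-labelled libraries. Fst was chosen for being higher, so it adds to the difference of these sums. The other markers, Wnt4, Rspo1, Irx3 and Foxl2, each overlapped between the groups. Wnt4 was at 0 to 5.17 RPM in controls and 6.04, 1.99, 1.15 and 28.6 RPM in CKO-labelled libraries 1 to 4. The part of such cells was not tested. Tyrobp, the DAP12 adaptor of immune receptors and itself on the macrophage list, had means of 2.22 ± 0.756 and 5.17 ± 1.10 RPM. Vangl2, a core component of planar cell polarity, had a mean of 7.29 ± 3.36 RPM in the CKO-labelled libraries, with 11.8 RPM in library 4 and 3.97 RPM in library 2. Sema6a, a transmembrane semaphorin, was at 4.58 RPM in control 2 and at most 0.883 RPM in the other controls, so its control mean of 1.70 RPM came mostly from 1 library. Steap1, of a family of membrane metalloreductases, and Slc4a8, a sodium-coupled bicarbonate transporter, had CKO-labelled means of 6.38 ± 1.31 and 6.86 ± 1.37 RPM.

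The vesicle, lysosome and membrane-lipid group (8 members) held Syt6, Plekha4 and Tcirg1, whose controls all lay under 1 RPM. Syt6 (chromosome 3, 103575245 to 103645567), a synaptotagmin linked to the exocytosis of the sperm acrosome, was listed at 0.294, 0.796, 0.438 and 0.942 RPM in controls and 15.6, 15.3, 10.3 and 10.7 RPM in CKO-labelled libraries. Plekha4 (chromosome 7, 45526330 to 45554229), a pleckstrin-homology domain protein that binds phosphoinositides, was listed at 0.294, 0.199, 0.438 and 0 RPM in controls and 9.75, 10.3, 16.6 and 11.1 RPM in CKO-labelled libraries. Tcirg1 (chromosome 19, 3896050 to 3907133), the a3 subunit of the proton-pumping V-ATPase that acidifies lysosomes and the osteoclast surface, was listed at 0, 0.398, 0.219 and 0.707 RPM in controls and 6.04, 16.3, 12.9 and 13.2 RPM in CKO-labelled libraries. In all 3 the lowest CKO-labelled library lay far above the highest control. The ratios of reads were 21.1 for Syt6, 50.5 for Plekha4 (95% counting interval 19.4 to 187) and 34.9 for Tcirg1 (15.8 to 96.4).

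Rragd, a Rag GTPase that brings mTORC1 to the lysosome, was listed at 2.65, 2.19, 1.75 and 4.24 RPM in controls and had a CKO-labelled mean of 15.4 ± 1.5 RPM, its highest library at 16.9 RPM. Syngr1, a membrane protein of synaptic vesicles, was listed at 0.883, 0.995, 0.876 and 1.18 RPM in controls and 6.73, 9.94, 8.90 and 8.22 RPM in CKO-labelled libraries. The CKO-labelled values of both were close together. Tbc1d9, of a family of Rab GTPase-activating proteins, had means of 2.11 ± 2.14 and 9.37 ± 1.95 RPM, its control 2 at 5.17 RPM. Ncs1, a neuronal calcium sensor, had means of 1.98 ± 1.04 and 6.88 ± 0.59 RPM, and Plekho1, another pleckstrin-homology protein, 1.91 ± 1.04 and 5.98 ± 4.07 RPM. Relatives of these genes were tested beside them where they were high enough, which held for only 3 other synaptotagmins of 17 listed. None of 3 other synaptotagmins and none of 6 other PLEKHA genes was called (limma, 1 higher at unadjusted p under 0.05 in each list), and the V-ATPase a subunits Atp6v0a1 (5.17 and 7.87 RPM) and Atp6v0a2 (22.9 and 19.3 RPM) were not called.

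Signalling and cytoskeletal proteins made up 8 members. Itpka (chromosome 2, 119742337 to 119751253), the inositol trisphosphate 3-kinase A that phosphorylates a calcium-releasing messenger, was listed at 0, 1.59, 0.657 and 0.942 RPM in controls and 10.7, 12.7, 10.9 and 8.58 RPM in CKO-labelled libraries. Its lowest CKO-labelled library lay well above its highest control, and the ratio of its means, 13.4, was the widest of this group. Rgs7, which speeds GTP hydrolysis by G protein alpha subunits, had controls of 4.71, 3.38, 1.53 and 0 RPM and CKO-labelled values of 8.82, 6.56, 11.2 and 6.08 RPM. Amotl1, an angiomotin of cell junctions that binds YAP, Nin, the centrosomal protein ninein, and Cdkl2, a cyclin-dependent kinase-like enzyme, had CKO-labelled means of 5.99 ± 1.25, 5.69 ± 2.26 and 5.31 ± 1.48 RPM.

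Genes of stress, cell death and defence made up 5 members. Gadd45g, a stress-inducible growth arrest gene, had means of 2.28 ± 1.04 and 11.1 ± 1.68 RPM, while its relatives Gadd45a (65.8 and 80.0 RPM) and Gadd45b (11.7 RPM in both groups) were not called. Bcl2l14, of the BCL2 family, was listed at 17.4, 11.1, 12.9 and 6.08 RPM in CKO-labelled libraries 1 to 4, the lowest of them library 4. Apobec3, a cytidine deaminase that restricts retroviruses, was listed at 2.35, 1.59, 1.75 and 1.88 RPM in controls and 11.6, 7.55, 10.6 and 7.86 RPM in CKO-labelled libraries. Controls of Apobec3 varied little and lay well below its CKO-labelled libraries. Parp4, a poly(ADP-ribose) polymerase of vault particles, and Ndrg1, a stress-responsive gene, had ratios of 3.4 and 7.86.

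Metabolic and other genes made up 7 members, and 3 were listed under clone names. The X-linked neighbours Armcx1 and Armcx4, armadillo-repeat genes 20138 bases apart, were listed at 12.1, 10.1, 8.04 and 25.0 RPM and at 4.41, 2.38, 3.16 and 14.7 RPM in CKO-labelled libraries 1 to 4. Library 4 was at least 2.07 times any other for both. Ak4, a mitochondrial adenylate kinase, had means of 1.69 ± 0.994 and 6.08 ± 2.02 RPM, and B3gnt5, which builds the core of lacto-series glycolipids, 1.4 ± 0.816 and 5.28 ± 3.67 RPM. Kctd14, a BTB-domain gene, was uneven, with 9.52 and 12.5 RPM in CKO-labelled libraries 1 and 4 and 2.78 and 2.87 RPM in libraries 2 and 3, and libraries 1 and 4 were also those with the higher somatic sums; the part of somatic cells was not tested. Ccdc90a, which encodes a mitochondrial calcium uptake regulator, and Fam160b2 had ratios of 5.49 and 2.07. Of the 3 clone names, 4831426I19Rik is Syne3 in RefSeq, the nuclear envelope protein nesprin-3 that links the nucleus to the cytoskeleton. Syne3 had 3 reads over the 4 controls and 118 over the CKO-labelled libraries, a ratio of 43.4 (14.5 to 214), and its values were 0, 0, 0.219 and 0.471 RPM against 5.34, 7.75, 7.46 and 10.7 RPM. Mgarp (4930583H14Rik), a mitochondrial protein gene, had means of 1.2 ± 0.577 and 7.1 ± 2.55 RPM.

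**Figure D3:**
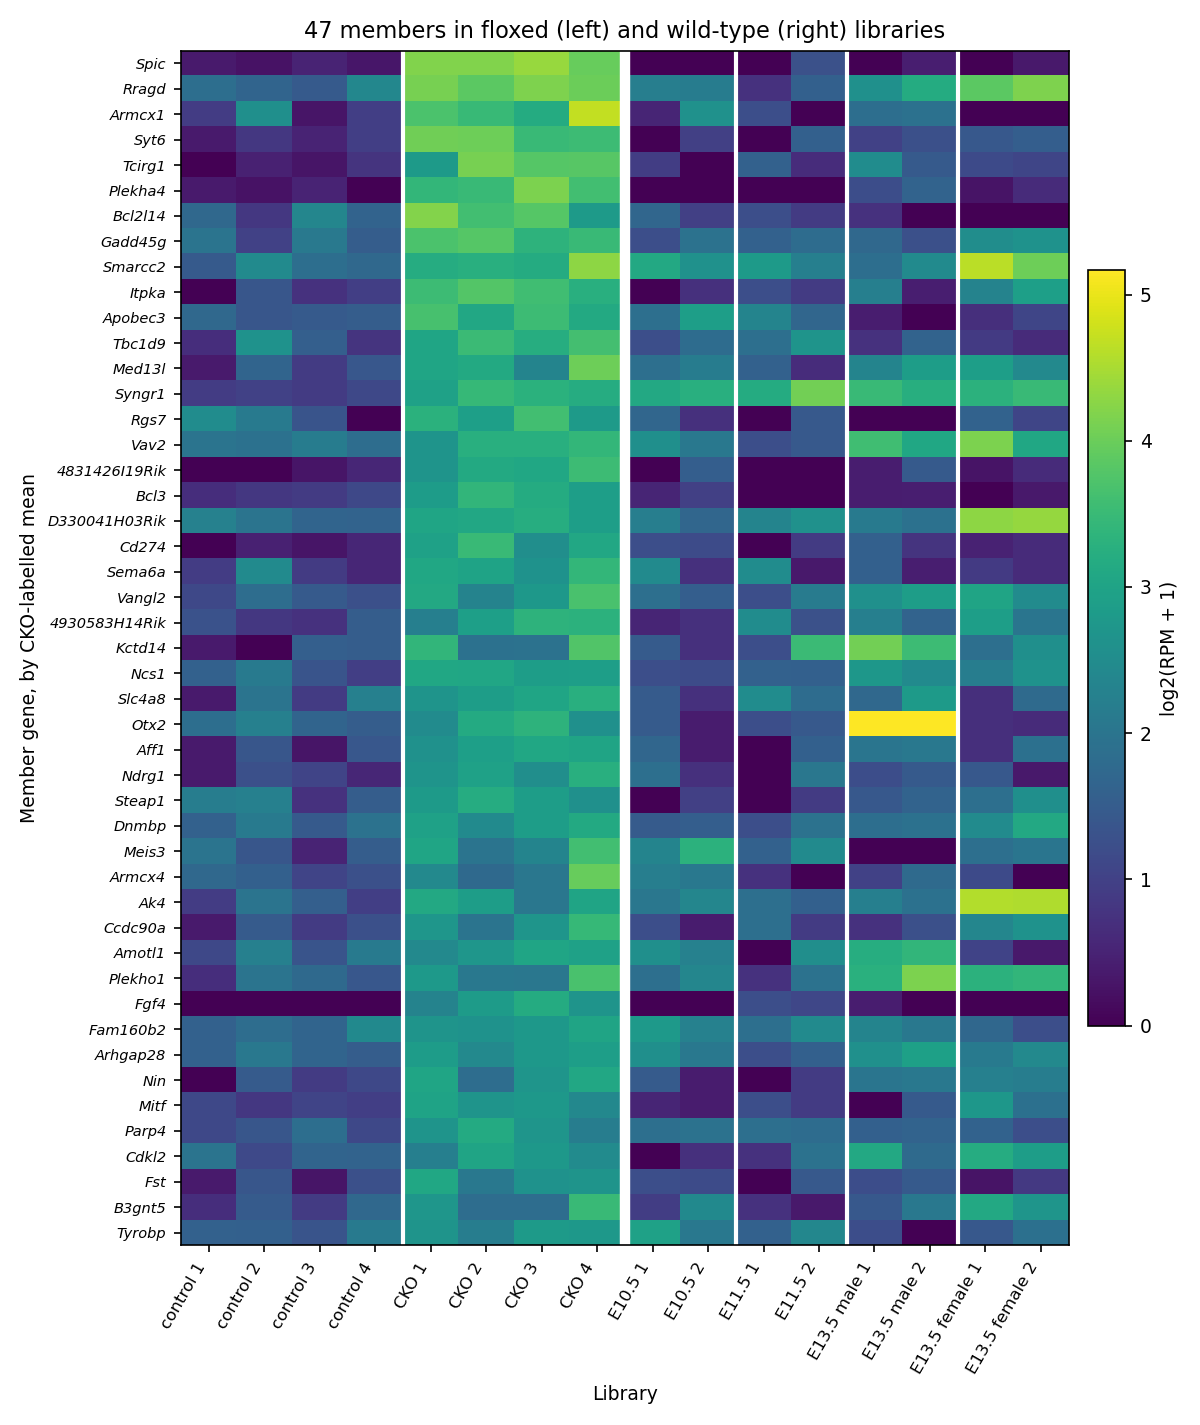
Expression of the 47 members on the log2(RPM + 1) scale in 8 floxed (left) and 8 wild-type (right) libraries, 1 row per gene ordered by CKO-labelled mean. Otx2 is brightest in the E13.5 male libraries (34.7 and 34.9 RPM), and Ak4 in the E13.5 female libraries (22.6 and 22.5 RPM).

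Members of related gene groups that were not in the set were examined in the floxed comparison, in which 1.93% of 9384 tested genes were called higher and 0.501% lower. Klf4, a naive pluripotency gene, and Oasl2, an interferon-stimulated gene, met the conditions of the choice and were left out of these groups too. The counts below do not cover them. Naive pluripotency genes, a group to which Spic and Fgf4 are often assigned, had 16 other tested genes and none called (limma, 6 higher and 2 lower at unadjusted p under 0.05); with the replicate number as a block Klf2 (adjusted p = 0.0131) was called higher and Prdm14 (0.0487) lower. The median log2 difference was 0.04 over this list and -0.02 over all genes. Of 6 formative and primed pluripotency genes besides Otx2, Dnmt3a, a de novo DNA methyltransferase, rose from 28.1 ± 2.83 to 61.3 ± 11.1 RPM (adjusted p = 0.00079). Of 5 interferon-stimulated genes, Nmi rose from 23.6 ± 3.06 to 132 ± 14.6 RPM (adjusted p = 2.48e-07) and Psmb10, an immunoproteasome subunit, from 7.30 ± 1.59 to 17.3 ± 2.2 RPM (adjusted p = 0.00768). The only tested PRDM1 target known from lymphocytes was not called, and 9 of the 10 were too low to test. Over 22 gene families with a member in the set, 66 relatives were listed. The SPI, OTX, STEAP, VAV, PD-1 ligand and FGF families had none high enough to test. In the other families 21 relatives were tested and none was called (limma, 2 higher and 1 lower at unadjusted p under 0.05). The nearest of them to a call was Tfe3, a relative of Mitf, with means of 38.3 and 64.7 RPM and an adjusted p that rounds to 0.05 without passing; with the replicate block it was called (adjusted p = 0.0047).

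Genes within 50000 bases of a member were examined as well, since neighbours can share regulatory sequence. Of 51 such tested genes that are not members, 6 rose (11.8%) and none fell, and they lay near 4 of the 27 members with a tested neighbour. The 6 include Plgrkt, which overlaps Cd274, and Chka. Both passed the filter only with their CKO-labelled values, so their calls are no support. Bcat2, a branched-chain aminotransferase 14738 bases from Plekha4, rose from 6.54 ± 1.07 to 23.6 ± 6.41 RPM (adjusted p = 0.000467). Ppp1r15a, the GADD34 stress phosphatase subunit on the other side of Plekha4 at 62 bases, rose from 6.93 ± 1.60 to 15.1 ± 1.99 RPM (adjusted p = 0.0155). Plekha4 thus lies between 2 genes that rose. Chka, a choline kinase 1681 bases from Tcirg1, had means of 6.24 ± 2.88 and 16.2 ± 1.13 RPM. With this mean and SD its controls cannot all have reached 5 RPM, so no p is given. Ndufs8, a subunit of respiratory complex I at 1730 bases from Tcirg1, rose from 58.6 ± 4.24 to 93.1 ± 10.1 RPM (adjusted p = 0.00646). G3bp2, a stress granule protein 9103 bases from Cdkl2, rose from 68.7 ± 7.75 to 166 ± 15.9 RPM (adjusted p = 3.31e-05). Whether the share of neighbours exceeds that of other genes was not tested. Among the members themselves, Apobec3 and Syngr1 lie 173116 bases apart on chromosome 15.

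In wild-type PGCs most members were low through E11.5 and fewer were low at E13.5. Under 3 RPM were 33 members at E10.5, 36 at E11.5, 27 in E13.5 males and 25 in E13.5 females (means of 2 libraries). At 5 RPM or more were 3, 2, 12 and 14 members in the same order. Over all genes, 9307 and 9467 reached 5 RPM in the E10.5 libraries and 9424 and 9456 at E11.5. At E13.5 they were 9668 and 9569 in males and 10006 and 9916 in females. Shares per stage over all genes low in controls were not computed, so the counts cannot be read as particular to the members. The 14 members under 3 RPM in all 4 groups were Spic, Syne3, Syt6, Plekha4, Fgf4, Bcl3, Cd274, Armcx1, Bcl2l14, Rgs7, Sema6a, Ndrg1, Parp4 and Fst. Spic was listed at 0 RPM in 5 of the 8 wild-type libraries and at most at 1.42 RPM, and Plekha4 at 0 in all 4 libraries from E10.5 and E11.5. Another 13 members peaked between 3 and 5 RPM, and 20 (42.6%) reached 5 RPM in at least 1 group. Of all 15996 genes with a control mean under 3 RPM, 5.86% did so. Within the narrower band of control means from 1 to 3 RPM, the shares were 54.5% of 33 members and 35.2% of 1949 genes.

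**Figure D4:**
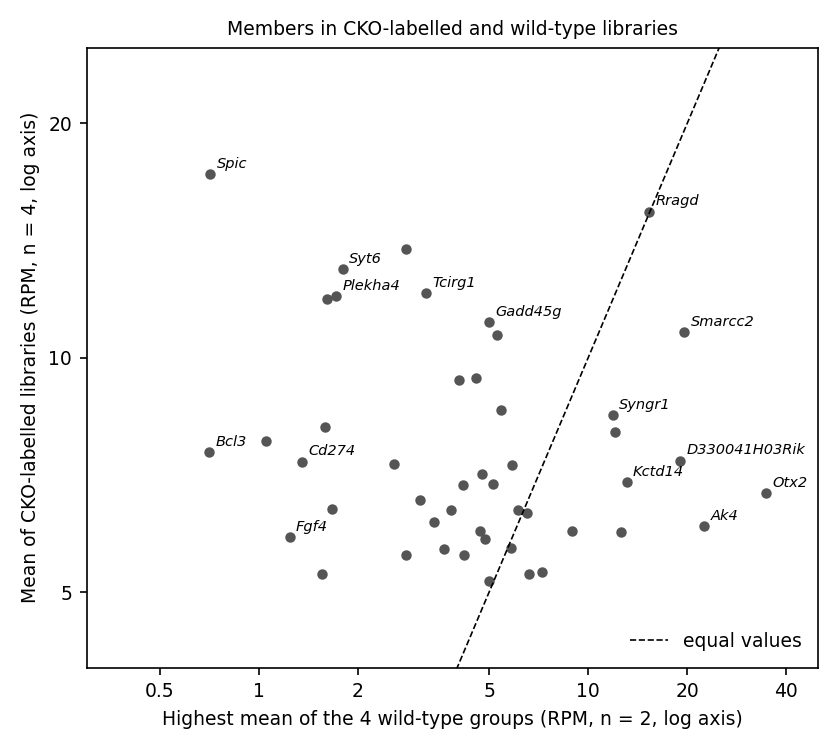
CKO-labelled mean (RPM, n = 4, log axis) against the highest of the 4 wild-type group means (RPM, n = 2, log axis), 1 point per member, with a dashed line of equal values. Spic lies far above the line (17.2 against 0.712 RPM), and 13 members, Otx2 and Ak4 among them, lie to its right.

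Some wild-type group reached the CKO-labelled mean in 13 members, and the highest group was at E13.5 in all of these except Meis3 (E10.5) and Syngr1 (E11.5). Syngr1 was the sole member whose wild-type E11.5 level (8.08 and 15.7 RPM) had a mean above its CKO-labelled mean (8.45 ± 1.34 RPM). In wild-type libraries of the other groups Syngr1 was at 7.67 to 10.4 RPM, so the floxed controls (0.876 to 1.18 RPM) stood below all 8 wild-type and all 4 CKO-labelled libraries. Its neighbour Apobec3 was at 4.04 and 2.28 RPM in wild-type E11.5 libraries. At the same age, 13 members had a wild-type mean above their highest floxed control library. Members were chosen for low control values and the share among other low genes was not computed, so this count is no result about them. The floxed and wild-type sets differ in strain, reporter and drug, and these cannot be told apart.

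The filter of 5 RPM in at least 2 wild-type libraries let 16 of the 47 members into the test over 10749 genes, and 31 members were too low to test. For 12 of the 16 the values that passed were all at E13.5, so these genes had to lie higher there; their values at E13.5 against E11.5 are given as a description, without p, and no count over them is support. From E10.5 to E11.5, 2.31% of all genes were called higher and 1.97% lower, and no member was called (limma, 1 higher and 3 lower at unadjusted p under 0.05). The smallest adjusted p was that of Rragd (3.57 ± 0.0634 to 1.33 ± 0.933 RPM, log2 difference -1.03 ± 0.43 SE, adjusted p = 0.175). The median log2 difference of the 16 was -0.41, beside 0.02 over all genes. The wild-type E10.5 libraries held more signal of some other cells. Gonadal somatic markers summed to 66.4 and 68.5 RPM at E10.5 and 6.06 and 7.69 RPM at E11.5. Erythroid markers summed to 247 and 227 RPM, then 16.8 and 6.26 RPM. Neural and mesonephric marker sums were lower at E10.5 instead. The part of other cells in the members' E10.5 levels was not tested.

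From E11.5 to E13.5, as the mean of both sexes, 29% of all genes were called higher and 18.8% lower. The 10 members past the threshold had all passed the filter through E13.5 values alone. Rragd went from 0.673 and 1.99 RPM at E11.5 to 5.01 and 8.10 RPM in males and 13.6 and 17.0 RPM in females (log2 difference 2.29 ± 0.37, SE). Vav2 went from 1.35 and 1.71 RPM to 11.0 and 7.40 RPM in males and 16.7 and 7.40 RPM in females (2.13 ± 0.38). All E13.5 libraries of both genes lay above both E11.5 libraries. The log2 difference was 2.19 ± 0.39 for Plekho1, 1.77 ± 0.46 for B3gnt5, 1.51 ± 0.41 for Med13l, 1.4 ± 0.47 for Cdkl2, 1.11 ± 0.39 for Arhgap28 and 1.06 ± 0.40 for Vangl2. In Otx2 and Ak4 the sexes differed. Otx2 was at 1.53 RPM at E11.5, 34.8 RPM in E13.5 males and 0.588 RPM in females, and Ak4 at 2.34, 3.25 and 22.5 RPM in the same order. Of the 4 tested members that had passed through earlier stages as well, Smarcc2, D330041H03Rik, Kctd14 and Syngr1, none was called (limma, Smarcc2 alone at unadjusted p under 0.05, adjusted p = 0.0836).

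Between the sexes at E13.5, when ovarian germ cells approach meiosis and testicular ones mitotic arrest, 21.2% of all genes were called higher in females and 16.4% lower. Otx2 and Amotl1 passed the filter through E13.5 males alone and Ak4 through E13.5 females alone, so these 3 had to differ and are described without p. Otx2 was at 34.7 and 34.9 RPM in males and 0.627 and 0.548 RPM in females (female minus male, log2 -4.50 ± 0.48 SE). Otx2 in males was also above all CKO-labelled libraries, the highest of which held 9.18 RPM. Amotl1 was lower in females (1.05 and 0.274 RPM, against 8.35 and 9.51 RPM, log2 -2.62 ± 0.58). Kctd14 reached 5 RPM in both male libraries and in 1 at E11.5. It passed only with the male values and is described without p. Kctd14 was lower in females too (2.72 and 4.93 RPM, against 15.7 and 10.6 RPM, log2 -1.56 ± 0.54), and its call was lost in 6 of 15 alternative fits.

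Ak4 was higher in females, with 22.6 and 22.5 RPM against 3.67 and 2.82 RPM in males (log2 2.48 ± 0.40). D330041H03Rik reached 5 RPM in both female libraries and in 1 at E11.5. It passed only with the female values and is described without p. D330041H03Rik was at 18.6 and 19.5 RPM in females and 3.34 and 2.82 RPM in males (log2 2.30 ± 0.40). Smarcc2 was at 23.8 and 15.3 RPM in females and 2.67 and 4.58 RPM in males (2.15 ± 0.40, limma adjusted p = 9.83e-05). The values of the sexes did not overlap in these 3 genes. Rragd was higher in females by 1.13 ± 0.43 (limma adjusted p = 0.0384), a call lost in 5 of 15 alternative fits. Syngr1, at 8.45 to 10.4 RPM in all E13.5 libraries, was called neither between the sexes (adjusted p = 0.938) nor against E11.5 (adjusted p = 0.57).

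**Figure D5:**
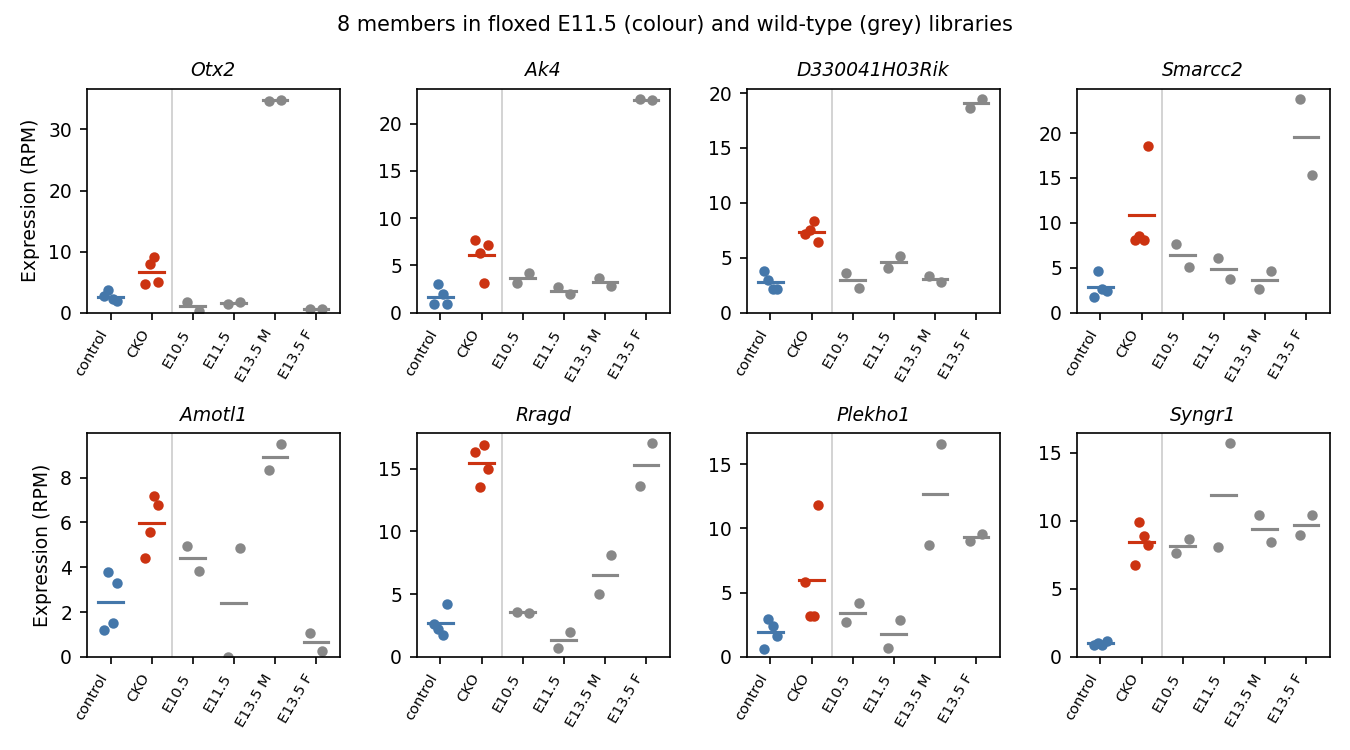
Expression (RPM) of 8 members in floxed E11.5 controls (blue) and CKO-labelled libraries (red, n = 4 each) and in wild-type libraries (grey, n = 2 per group), 1 point per library with a line at the mean. Otx2 and Amotl1 are high in E13.5 males (34.7 and 34.9, 8.35 and 9.51 RPM), Ak4, D330041H03Rik and Smarcc2 in E13.5 females, and Syngr1 is low in the floxed controls alone (0.876 to 1.18 RPM).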

How the data were processed

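Values were the authors' deposited RPM per gene, without division by length, so levels of different genes were not compared. Per the submitters' processing notes, cutadapt 1.3, TopHat 1.4.1 and Cufflinks 2.2.0 were used with mm10; per the labels' protocols, cDNA was amplified with 11 PCR cycles. The 92 ERCC spike-in rows were left out. Between 99.61% and 99.79% of positive values were whole multiples of 1 step per library within 0.05 reads, which gave the depths, but values were analysed as RPM.

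Members, gene lists and roles were chosen with earlier results of these data known. Members were selected on the floxed values and got no test there. All genes at 5 RPM or more in 4 floxed or 2 wild-type libraries were tested as log2(RPM + 1), which understates changes of low genes, with limma 3.58.1 (lmFit, eBayes with trend) in R 4.3.3, two-sided, with calls at p under 0.05 after Benjamini-Hochberg adjustment over all genes tested. The comparisons E11.5 against E10.5, E13.5 against E11.5 and female against male share libraries. Named members were the markers Spic, Plekha4 and Syt6, the 15 highest by CKO-labelled mean, those with near-empty controls, those called in wild type, those at the edges of the choice and those with a promoter match; others are given by role. Alternatives covered the pseudocount, filter, scaling, variance trend, replicate block, groups fitted and each library left out. Methods were tested on simulated data. Gene positions and promoters came from RefSeq on GRCm38.p6.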

Additional observations from a re-analysis of the deposited data

Results flagged for a closer look

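Of 94 groups of 4 floxed values (47 members, 2 groups each), 4 held 1 library far from the other 3, and chance flags about 1 group in 20. Control 2 was high for Armcx1 (4.97 RPM) and for Sema6a (4.58 RPM). CKO-labelled library 4 was high for Smarcc2 (18.6 RPM) and for Armcx4 (14.7 RPM). Control 2 had the highest somatic marker sum of the controls (81.8 RPM) and library 4 the highest of the CKO-labelled libraries (304 RPM), and the part of this in the 4 values was not tested.

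The change from E11.5 to E13.5 differed between the sexes in 7 of the 16 tested members, by the test of female against male. Of these, 4 were higher in females and 3 lower, beside 21.2% and 16.4% of all genes, so the count is no result about the members. The differences, female minus male on the log2(RPM + 1) scale, were -4.50 for Otx2, -2.62 for Amotl1, -1.56 for Kctd14, 1.13 for Rragd, 2.15 for Smarcc2, 2.30 for D330041H03Rik and 2.48 for Ak4. Otx2, Amotl1 and Ak4 passed the filter on low values only through the sex in which they are high. Kctd14 and D330041H03Rik also needed the values of that sex to pass it. The tests of all these genes are no support.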

How the results depend on the processing

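The set of 47 became 31 genes with a control ceiling of 2 RPM, 92 with 5 RPM, 90 with a CKO-labelled minimum of 3 RPM, 10 with 10 RPM and 116 without the condition of no overlap. Leaving out 1 library gave 46 to 67 genes, and median-ratio scaling gave 49, with 45 shared; without control 1 and CKO-labelled library 4, chosen after seeing the data, it was 51, with 39 shared. Calls from E10.5 to E11.5 (460) fell to 80 without a filter, 27 without a trend and 79 with only these groups, and ranged from 105 to 486 with 1 library left out. Members called there went from 0 to at most 1, Kctd14 without E11.5 replicate 1 and Amotl1 without E11.5 replicate 2. Members called at E13.5 (10, all admitted by E13.5 values alone) ranged from 7 to 11 and between the sexes (7) from 5 to 7 with 1 library left out, and a filter at 20 RPM, which only 2 members passed, gave 2 in each. All-gene calls ranged from 4149 to 5069 at E13.5 (5146) and from 2708 to 4433 between the sexes (4038). Floxed calls (228) were 139 with a filter at 20 RPM and 137 to 204 with 1 library left out, the lowest without CKO-labelled replicate 2. Median-ratio scaling moved the split of higher against lower calls from 248 and 212 to 212 and 280 at E11.5, and from 3121 and 2025 to 2623 and 2501 at E13.5. The cause of these shifts was not tested.

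A replicate block gave 559, 5167, 4099 and 314 calls from E10.5 to E11.5, at E13.5, between the sexes and in the floxed set; members called stayed at 0, 10 and 7. Deviations of floxed libraries with the same number correlated at 0.239, 0.041, 0.301 and 0.217, and 3 of the 4 values exceed 0.1. Control 2 and CKO-labelled 2 each correlated better with a library numbered 3 (0.205 and 0.22), and the labels name nothing that a number marks, so the block stayed an alternative and the pairing is not settled. With it Klf2, Prdm14 and Tfe3 were called in addition among the lists and relatives. All 6 neighbours kept their calls, of which those of Plgrkt and Chka are no support. No member call reversed in any alternative run. Depth limits most member values, since 3 reads are worth up to 2.02 RPM.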
